A study of Rattus norvegicus with 2 samples.

Results

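The genes described here are 35 endoplasmic reticulum (ER) chaperones, ER degradation genes and regulators of the unfolded protein response. They were chosen by symbol, with earlier results of these data known, and followed through 6 cell types of rat dorsal root ganglia (DRGs). Of the 35 genes, 34 had a symbol among the 32623 genes of the count tables, and Derl3 had none. The DRG holds the cell bodies of sensory neurons, each wrapped by satellite glial cells (SGCs), together with Schwann cells, vessels, fibroblasts and macrophages. Male Sprague-Dawley rats, 8 weeks old at purchase, received either streptozotocin (STZ) at 65 mg/kg, a toxin of insulin-producing beta cells that makes rats diabetic, or citrate buffer alone. Bilateral L3-6 DRGs were taken 8 weeks after the injection, when the STZ rats were taken as having diabetic peripheral neuropathy (DPN), and were digested with enzymes to single cells. Ganglia of 5 rats went into each of 2 libraries, 1 control and 1 DPN, so that rats within a pool cannot be separated and no difference between the libraries can be tested against differences among rats. Dead cells had been removed before capture, and the model is one of drug-induced diabetes in males.

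Proteins that enter the secretory pathway are folded in the ER by chaperones such as BiP, encoded by Hspa5, and by disulfide isomerases. When unfolded protein accumulates, the sensors ATF6, IRE1 (Ern1) and PERK (Eif2ak3) respond. ATF6 is cut and becomes a transcription factor for chaperone genes, IRE1 splices Xbp1 mRNA to give a factor that drives degradation and co-chaperone genes, and PERK slows translation while favouring that of ATF4, which induces Ddit3 (CHOP), Trib3 and amino acid genes. Many targets answer to more than 1 of these arms, and the grouping used below is a textbook one.

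Promoter sequences are shown first because they bear on which of these genes share a regulatory element. ATF6 and XBP1 act through the ER stress response element (ERSE), spelled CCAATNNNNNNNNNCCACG, and through ERSE-II, spelled ATTGGNCCACG. RefSeq promoters (build GRCr8, from 250 bases before to 50 after each start) were held for 28 of the 35 genes, and both strands were searched. ERSE occurred in 8 of the 28 (28.6%) against 0.0765% of the 27457 genes with a promoter, and ERSE-II in 3 (10.7%) against 0.0619%. The genes were listed as genes of this response, to which these elements belong. Their excess over all genes thus follows from the choice of genes and is no independent support. The XBP1-type element TGACGTGG occurred in 1 (3.57%) against 0.681% of genes, in the Hyou1 promoter and overlapping an ERSE-II, and the ATF4-type element TGATGNAAT in none of the 28 against 1.14%. Of the ATF4-type element only the form ending in T was searched. A promoter with the form ending in C thus counts as having none. The windows below carry the element in capitals, with the bases on either side in lower case, each read 5′ to 3′ on the strand of its gene. They were chosen as the genes with an element whose DPN values are far from control (the first 5) or close to it (the last 3).
Hspa5, chr3:38452953-38453011, plus strand, ERSE: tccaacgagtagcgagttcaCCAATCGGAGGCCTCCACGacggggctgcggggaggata
Hsp90b1, chr7:23012431-23012489, minus strand, ERSE: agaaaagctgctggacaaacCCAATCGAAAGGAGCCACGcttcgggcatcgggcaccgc
Creld2, chr7:121789219-121789277, plus strand, ERSE on the opposite strand: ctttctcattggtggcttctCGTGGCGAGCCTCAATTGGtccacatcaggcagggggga
Xbp1, chr14:84604538-84604596, plus strand, ERSE: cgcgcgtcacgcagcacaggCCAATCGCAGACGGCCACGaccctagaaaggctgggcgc
Hyou1, chr8:53602774-53602824, plus strand, ERSE-II on the opposite strand: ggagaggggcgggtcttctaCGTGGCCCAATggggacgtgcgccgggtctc
Calr, chr19:40213117-40213173, plus strand, ERSE on the opposite strand: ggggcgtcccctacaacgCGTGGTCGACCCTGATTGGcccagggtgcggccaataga
Herpud1, chr19:10614801-10614851, minus strand, ERSE-II: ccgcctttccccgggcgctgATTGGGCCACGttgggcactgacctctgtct
Dnajb11, chr11:91672780-91672830, minus strand, ERSE-II: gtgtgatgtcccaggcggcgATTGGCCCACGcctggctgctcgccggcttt
The other genes with an ERSE were Canx, Dnajc3 and Derl3, and Hsp90b1 and Hyou1 each had a second element. A match of letters is a description and does not show that a factor binds there.

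Cells were taken by marker gates, that is, by minimum levels of marker genes per 10000 UMIs (unique molecular identifiers, each a counted RNA molecule). SGCs (Fabp7 and Tyrp1) numbered 4076 among control and 2950 among DPN cells, myelinating Schwann cells (Prx, Mag and Cldn19) 328 and 446, endothelium (Cldn5, Flt1 and Cdh5) 767 and 1145, smooth muscle (Myh11) 362 and 528, fibroblasts (Lum) 204 and 314, and macrophages (C1qa, C1qb and C1qc) 164 and 223. All markers that were summed for each type, 6 for endothelium, were detected in its own gate. CPM are UMIs scaled to a common total in every gate and library. The summed SGC markers were 3238 and 2959 CPM in SGCs, against 297.7 to 453.8 CPM in the other gates. Each set of markers includes its gate genes, so detection and a high sum in the own gate were in part fixed by the gating. The libraries held 121101966 and 115409375 UMIs over 11011 and 13168 barcodes, of which 38 barcode sequences occurred in both. Leaving these out changed no count of genes given below. All 6 markers of neurons, which no gate was meant to hold, had UMIs in every gate, and their sum was higher in the DPN library in all 6 gates, from 136 to 277.3 CPM in the control and from 271.1 to 690.9 CPM in the DPN library. The part of such stray RNA in the results below was not tested.

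A gene is called higher or lower in the DPN library if its CPM ratio of DPN to control reached 1.5, or its inverse, and if the exact 95% interval of the ratio left out 1. It was asked only of genes with at least 50 UMIs in that gate. Intervals cover counting error only, with no part for rats or libraries, and the ratios are a description of these 2 libraries. Calls were frequent over all genes, so each count below is set beside the share over all genes.

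In SGCs, some of the listed ER chaperones were among the genes with the largest differences between the libraries. The list was made with earlier results of these data known, and the paper reports Hspa5, Hsp90b1 and Pdia3 as upregulated in SGCs. It also reports Hspa5 and Hsp90b1 as upregulated in Schwann cells, and Hspa1b as downregulated in SGCs and Schwann cells. The ranks below thus describe these libraries and are no independent support. Hspa5, the central ER chaperone, stood at 671.4 CPM in the control and 2038 CPM in the DPN library, a ratio of 3.04 (2.998 to 3.074). Among the 5964 genes with at least 1000 UMIs in these cells, its ratio ranked 37 from the highest. Hyou1, a large chaperone that exchanges the nucleotide of BiP, went from 14.1 to 42.1 CPM, a ratio of 2.98 (2.73 to 3.25) and rank 41. Creld2, a secreted ER stress marker, had 10.0 and 27.0 CPM, a ratio of 2.69 (2.42 to 2.99) and rank 70. The next listed gene in this order, Pdia4, ranked 140.

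The isomerases and the ER form of Hsp90 followed. Hsp90b1 (GRP94), which folds a limited set of secreted and membrane proteins, was at 316.9 CPM in control and 675.1 CPM in DPN SGCs, a ratio of 2.13 (2.09 to 2.17). Pdia4 had 21.7 and 50.6 CPM, a ratio of 2.33 (2.16 to 2.51). Pdia3, which works with calnexin and calreticulin on glycoproteins, had 197.6 and 350.3 CPM, a ratio of 1.77 (1.73 to 1.82). Sel1l, the partner of the degradation ligase Hrd1, had 23.5 and 44.5 CPM, a ratio of 1.90 (1.76 to 2.04). With these, 7 of the 14 genes of the ATF6 arm were higher in the DPN library and none was lower, against 26.9% and 2.47% of all genes.

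The other 7 genes of the ATF6 arm stayed inside the limit in SGCs. Calr (calreticulin), with 836.7 and 881.5 CPM, had a ratio of 1.05 (1.04 to 1.07). Herpud1, which serves ER degradation, had 137.8 and 139.0 CPM and a ratio of 1.01 (0.973 to 1.05). Pdia6, an isomerase, had a log2 ratio of 0.33. Ratios were 1.26 for Manf, 1.39 for Canx (calnexin) and 1.12 for Dnajb11, a BiP co-chaperone. Sdf2l1, which helps BiP to cycle, had the lowest ratio of the arm at 0.891 (0.833 to 0.952). Genes of 1 arm thus spread from 0.891 to 3.04 in the same cells.

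The sensors of the response, grouped here with Xbp1, whose mRNA IRE1 splices, were low in number of UMIs apart from Atf6. Atf6 went from 90.1 to 163.3 CPM in SGCs, a ratio of 1.81 (1.74 to 1.88). Eif2ak3, which encodes PERK, had 5.73 and 11.4 CPM, a ratio of 1.99 (1.71 to 2.31). Xbp1 had 3.06 and 6.61 CPM, a ratio of 2.16 (1.76 to 2.65) from 175 and 218 UMIs. Ern1 stayed inside the limit with 5.99 and 8.28 CPM and a ratio of 1.38 (1.17 to 1.63). The counts do not separate spliced from unspliced Xbp1 mRNA, nor cut from whole ATF6, so they do not measure whether either sensor was active.

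Of the 10 measured genes of the XBP1 arm, only Edem1 was past the limit in SGCs, where 26.9% of all genes were higher. Edem1, which takes misfolded glycoproteins to degradation, had 3.61 and 5.94 CPM, a ratio of 1.65 (1.35 to 2.01). The BiP co-chaperones Dnajc3 and Dnajb9 had ratios of 1.49 and 1.42. The remaining 7 ranged from 0.889 for Derl1, a channel component of ER degradation, to 1.27 for Syvn1, the Hrd1 ligase.

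No gene of the PERK arm was called higher in a gate where it was measured, against 17.2% to 26.9% of all genes by gate. However, only Atf4, Ddit3 and Ppp1r15a were measured in all 6 gates, Trib3 in 3, and Asns and Chac1 in 2. In endothelium 4 of the 6 had ratios above 1, with Chac1 the largest at 1.39. Atf4, the transcription factor of this arm, was at 1031 CPM in control and 831.6 CPM in DPN SGCs, a ratio of 0.806 (0.795 to 0.818). Ddit3, which encodes the pro-apoptotic factor CHOP, had 278.8 and 268.8 CPM, a ratio of 0.964 (0.9395 to 0.9898). Trib3, a target of ATF4 and CHOP, was lower in the DPN library at 10.6 and 5.46 CPM, a ratio of 0.517 (0.435 to 0.612). With a mitochondrial limit of 10%, which left it 54 UMIs, its ratio was 1.16. Ppp1r15a, which restores translation, had a ratio of 1.12, Asns (asparagine synthetase) 0.992 and Chac1, which breaks down glutathione, 0.846. ATF4 is set largely at translation, which these counts do not show.

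**Figure D1:**
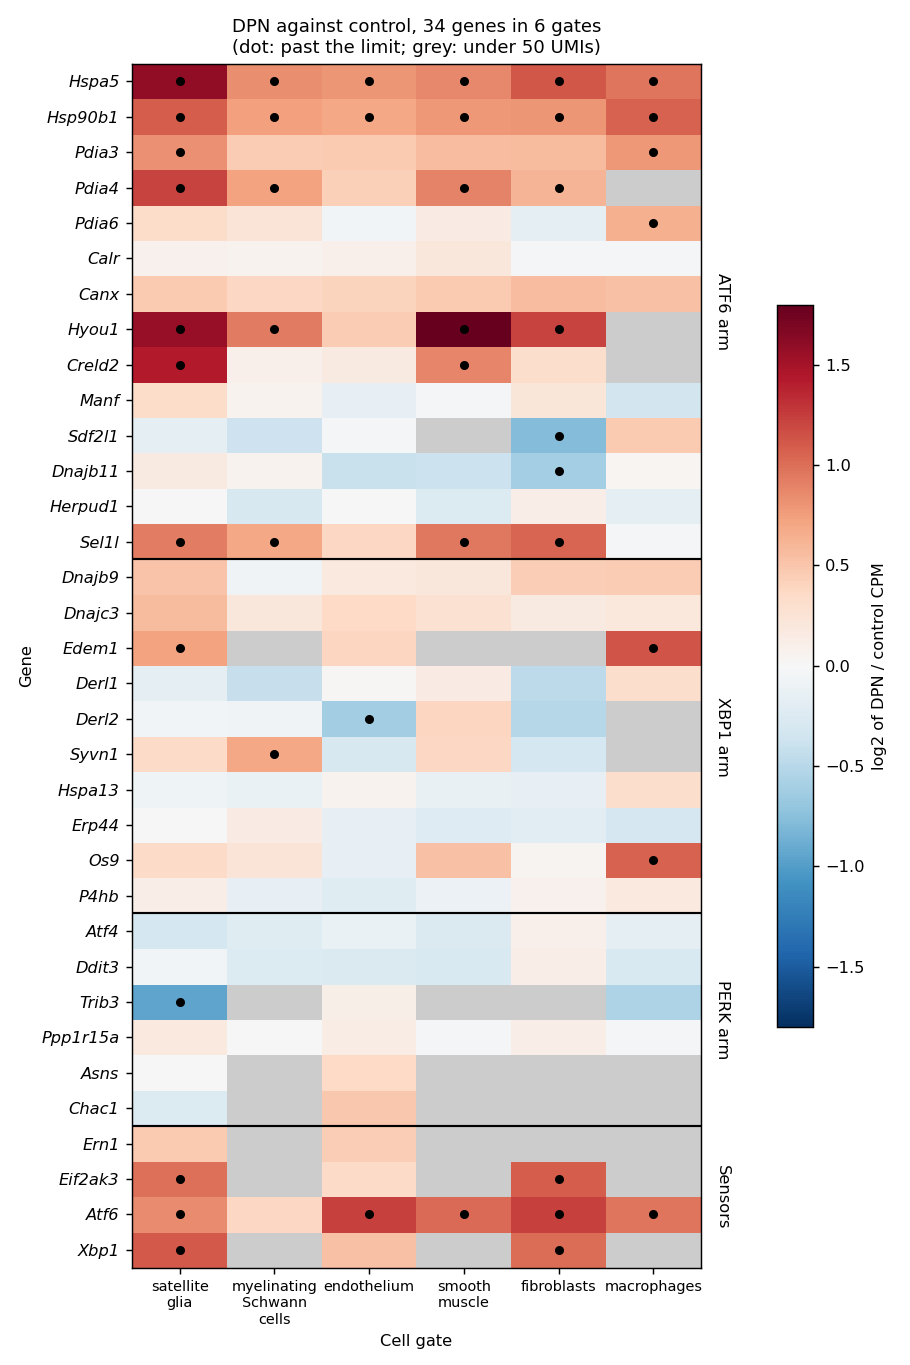
Log2 of the DPN to control CPM ratio for the 34 genes (rows, by arm) in 6 gates (columns). Red is higher and blue lower in the DPN library, dots mark genes past the limit, and grey marks genes under 50 UMIs. Dots cover the 2 top rows, Hspa5 and Hsp90b1, in all gates, and the 1 dot of the PERK arm, Trib3 in SGCs, is on blue.

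Over all 34 genes in SGCs, 11 (32.4%) were higher and 1 was lower in the DPN library, where 26.9% of the 11749 tested genes were higher and 2.47% lower. Their median log2 ratio was 0.34, against 0.21 over all genes. The share over the whole list is thus near that of all genes, and the arms differed in theirs. In the ATF6 arm 7 of 14 were higher, in the XBP1 arm 1 of 10 and in the PERK arm 0 of 6. In the group of the sensors and Xbp1, 3 of 4 were higher. The libraries were also scaled to an equal median over the 9532 genes with at least 200 UMIs in SGCs. This shift of 0.15 on the log2 scale was less than the median of 0.21 over all genes. Then 10 of the 34 were higher and 1 lower, against 20.7% and 5.48% of all genes. The share of higher among all calls went from 91.6% to 79.1%.

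The share over all genes depended strongly on how many UMIs a gene had. Among genes with 10000 or more UMIs in SGCs, 5.95% of 1143 were higher, against 45.9% of 2217 genes with 50 to 200 UMIs. The listed genes with 10000 or more UMIs numbered 15, of which Hspa5, Hsp90b1, Pdia3 and Atf6 were higher. Those with 1000 to 10000 UMIs numbered 12, of which Pdia4, Hyou1, Creld2 and Sel1l were higher, where 18.4% of all such genes were. Of the 7 with 200 to 1000 UMIs, Edem1, Eif2ak3 and Xbp1 were higher, where 33.2% of all such genes were.

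Hspa5 and Hsp90b1 were higher in the DPN library in all 6 gates, the only 2 of the 21 listed genes measured in every gate to be so. The share of all genes higher in every gate is not given, so the 2 cannot be set beside it. The calls of Hspa5 and Hsp90b1 were lost in myelinating Schwann cells with a mitochondrial limit of 10%, at 1.38 and 1.37. That of Hsp90b1 was lost in endothelium with cells thinned to 1000 UMIs, at 1.49. Hspa5 was at 800.9 and 1434 CPM in control and DPN myelinating Schwann cells, a ratio of 1.79 (1.69 to 1.90). In endothelium it had 929.6 and 1616 CPM, a ratio of 1.74 (1.70 to 1.78), and in smooth muscle 1314 and 2393 CPM, a ratio of 1.82 (1.74 to 1.91). In fibroblasts it had 1341 and 2921 CPM, a ratio of 2.18 (2.07 to 2.29), and in macrophages 1208 and 2355 CPM, a ratio of 1.95 (1.81 to 2.10). SGCs had the lowest Hspa5 level of the 6 gates in the control library and the fourth highest in the DPN library, and their ratio was the largest, with an interval apart from those of the other gates.

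Hsp90b1 ratios lay closer together, from 1.63 (1.56 to 1.70) in endothelium to 2.13 in SGCs. Macrophages, with 239.0 and 501.2 CPM, had a ratio of 2.10 (1.78 to 2.47), whose interval took in that of SGCs. Fibroblasts held the highest Hsp90b1 level in both libraries, at 512.1 and 890.5 CPM, apart from the next gate in both.

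**Figure D2:**
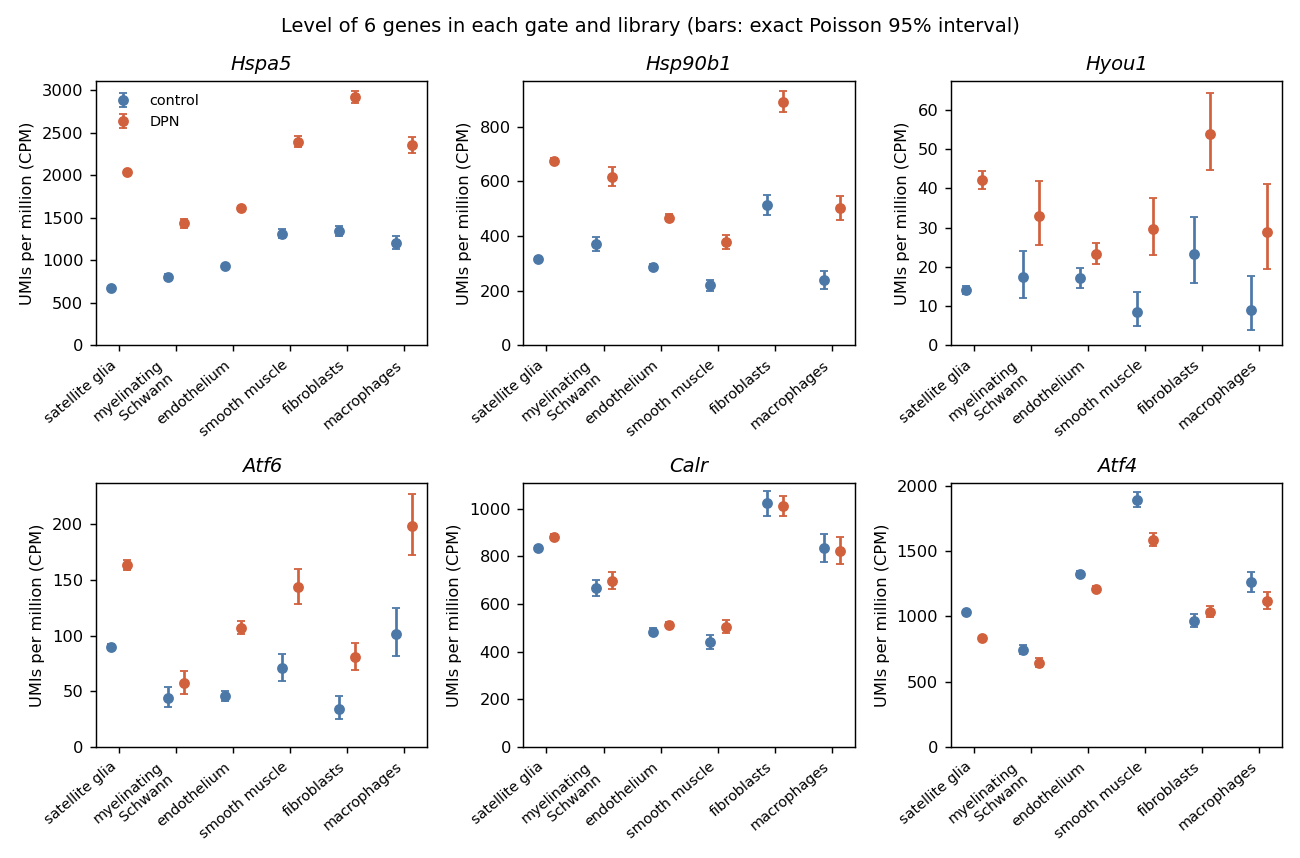
CPM of 6 genes (y axes, linear from 0) in 6 gates of the control (blue) and DPN (orange) libraries, with exact Poisson 95% intervals as bars. Hspa5 and Hsp90b1 are higher in the DPN library in every gate, Calr has ratios of 0.987 to 1.15, Hyou1 in macrophages has under 50 UMIs, and Atf4 stays inside the limit in every gate, with ratios of 0.806 to 1.07.

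In myelinating Schwann cells 6 of 27 measured genes (22.2%) were higher and 0 lower, against 18.9% and 4.91% of all genes. Those higher beside Hspa5 and Hsp90b1 were Hyou1 at 1.91 (1.26 to 2.94), Pdia4 at 1.66 (1.06 to 2.64), Sel1l at 1.62 (1.17 to 2.26) and Syvn1 at 1.62 (1.05 to 2.55). The 3 red blood cell markers summed to 1.92 CPM in the control and 162.5 CPM in the DPN library of this gate, with Hbb and Alas2 at 0 in the control, and their part was not tested.

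Endothelium had the smallest share of calls. Of 34 genes, 3 (8.82%) were higher and 1 lower, where 19.5% and 5.24% of all genes were. Beside Hspa5 and Hsp90b1, Atf6 was higher with 45.6 and 107.2 CPM, a ratio of 2.35 (2.11 to 2.62) and rank 43 of 3083 genes with at least 1000 UMIs. Derl2, a channel component of ER degradation, was lower with 22.6 and 14.6 CPM, a ratio of 0.648 (0.532 to 0.790). Hyou1 had 17.0 and 23.4 CPM, a ratio of 1.37 (1.13 to 1.66), and Creld2 1.12 (0.916 to 1.37), with intervals below those of both genes in SGCs.

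In smooth muscle 7 of 26 (26.9%) were higher and 0 lower, against 17.2% and 3.74% of all genes. Hyou1 had a ratio of 3.51 (2.04 to 6.36) from 17 and 70 UMIs, Atf6 2.03 (1.67 to 2.49), Sel1l 1.94 (1.27 to 3.01), Pdia4 1.86 (1.10 to 3.23) and Creld2 1.83 (1.05 to 3.29). The 2 neutrophil markers, both detected, summed to 263.4 CPM in the control and 2.96 CPM in the DPN library of this gate, and their part was not tested.

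Fibroblasts were the gate with the highest level in both libraries for 13 of the 34 genes, and for 8 of these the interval was apart from the next gate. The share of all genes with their highest level in fibroblasts is not given, so the 13 cannot be set beside it. In fibroblasts 8 of 29 measured genes (27.6%) were higher and 2 lower, against 25.4% and 4.01% of all genes. With equal medians over genes with at least 200 UMIs, 6 were higher and 3 lower, against 21.4% and 6.64% of all genes. The share of higher among all calls went from 86.3% to 76.3%. The genes higher beside Hspa5 and Hsp90b1 were Atf6 at 2.35 (1.70 to 3.29), Hyou1 at 2.32 (1.57 to 3.52), Eif2ak3 at 2.12 (1.22 to 3.89), Sel1l at 2.07 (1.42 to 3.07), Xbp1 at 2.001 (1.02 to 4.21) and Pdia4 at 1.52 (1.16 to 2.01). Sdf2l1, at 64.0 and 37.3 CPM, was lower with a ratio of 0.583 (0.428 to 0.794), and Dnajb11, at 87.2 and 57.4 CPM, with 0.657 (0.510 to 0.848). Both are partners of BiP and were thus on the other side of 1 from Hspa5 in the same cells.

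In macrophages 7 of 24 (29.2%) were higher and 0 lower, against 19.2% and 3.44% of all genes. Beside Hspa5 and Hsp90b1 these were Edem1 at 2.19 (1.16 to 4.40), the degradation lectin Os9 at 2.09 (1.255 to 3.61), Atf6 at 1.95 (1.52 to 2.53), Pdia3 at 1.71 (1.40 to 2.10) and Pdia6 at 1.56 (1.23 to 1.998). Edem1 rested on 14 and 36 UMIs and Os9 on 22 and 54. Among cells that reached no gate, 9 of 34 (26.5%) were higher and 1 lower, against 23.7% and 2.30% of all genes.

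Counted over the 6 gates, 14 genes were higher in at least 1, 4 were lower in 1 (Sdf2l1, Dnajb11, Derl2 and Trib3) and 16 were past the limit in none. In single gates 17.2% to 26.9% of all genes were higher. The share of all genes higher in at least 1 gate is not given, so the 14 cannot be set beside it. Atf6 was higher in 5 gates, with a ratio of 1.299 (0.982 to 1.72) in the sixth, myelinating Schwann cells. With cells thinned to 1000 UMIs, which left 15, 8 and 15 UMIs, the ratios of Pdia4 in smooth muscle, Xbp1 in fibroblasts and Edem1 in macrophages were 0.784, 0.390 and 0.840. Calr was inside 0.987 to 1.15 in every gate. Ratios were above 1 in all gates for 6 of the 21 genes measured in every one, namely Hspa5, Hsp90b1, Pdia3, Canx, Dnajc3 and Atf6. In the PERK arm, Atf4 had ratios between 0.806 and 0.917 and Ddit3 between 0.823 and 0.964 outside fibroblasts, and in fibroblasts they had 1.07 (1.0005 to 1.1444) and 1.08 (0.955 to 1.23). Atf4 and Ddit3 had their highest level in smooth muscle in both libraries, Atf4 at 1895 and 1588 CPM.

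Genes with an ERSE or ERSE-II were not all higher. In SGCs 5 of the 10 measured genes with such an element were higher, with a median log2 ratio of 0.83, and 4 of 17 with a promoter but neither element were higher and 1 lower, with a median of -0.01, where 26.9% of all genes were higher and 2.47% lower. The Hspa5, Hsp90b1, Creld2, Xbp1 and Hyou1 windows printed above belong to the 5 that were higher. Calr, Herpud1 and Dnajb11, whose windows also hold an intact element, had SGC ratios of 1.05, 1.01 and 1.12. In endothelium 2 of 10 genes with an element and 0 of 17 without were higher, where 19.5% of all genes were.

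With each SGC thinned to 5000 UMIs, which 3971 control and 2809 DPN cells reached, the median cell held 3 Hspa5 UMIs in control and 9 in DPN SGCs. The 10th and 90th percentiles were 1 and 6 in control and 4 and 17 in DPN cells. SGCs without an Hspa5 UMI made up 6.19% of control and 0.320% of DPN cells at this depth. In endothelium, with 560 and 753 cells, the medians were 4 and 8. Hsp90b1 medians in SGCs were 1 and 3, and Calr medians 4 and 4. Cells of 1 pool are not replicates, and these values describe the cells captured.

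**Figure D3:**
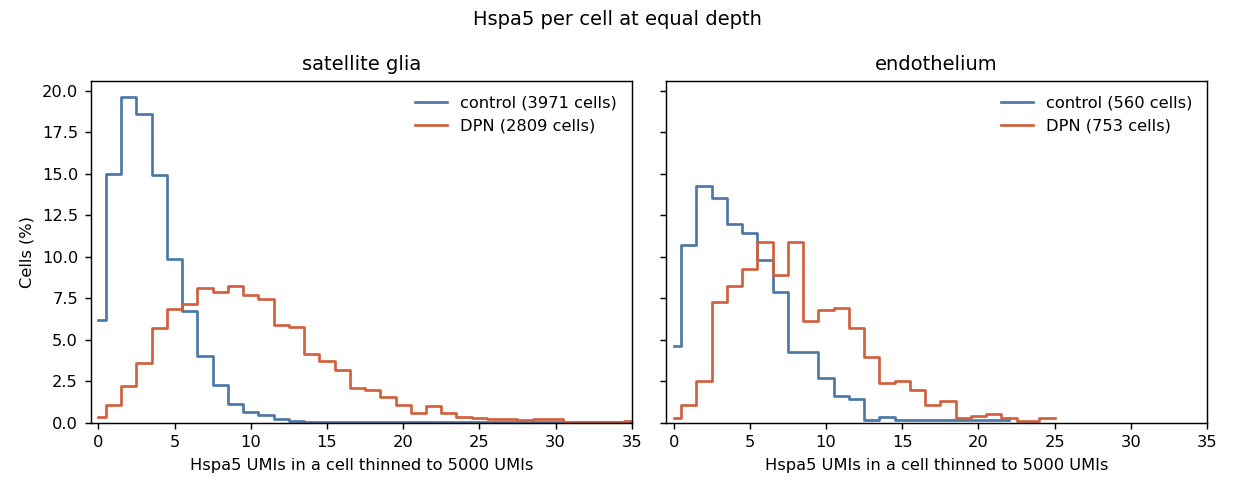
Percent of cells (y) by number of Hspa5 UMIs (x) after thinning to 5000 UMIs, in SGCs and endothelium of the control (blue) and DPN (orange) libraries. The DPN distributions are shifted to the right and overlap those of the control, with medians of 9 against 3 UMIs in SGCs and 8 against 4 in endothelium.

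The ratios were also computed within classes of cell depth, chosen after the data had been seen. Hspa5 in SGCs had ratios of 3.33, 2.90, 3.08 and 2.91 in cells of 1000 to 5000, 5000 to 10000, 10000 to 20000 and over 20000 UMIs. In endothelium the same classes gave 2.23, 2.31, 1.75 and 1.60. Calr in SGCs gave 1.22, 1.36, 1.03 and 1.06. Atf6 in endothelium went from 3.24 in the shallowest to 2.06 in the deepest cells.

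The length of a gene moved with its ratio over the genome. In SGCs the median log2 ratio of all tested genes rose from -0.12 for genes spanning up to 5000 bases to 0.53 for those over 50000 bases, and the share higher from 11.05% to 45.2%. Spans were those of RefSeq in GRCr8 and were found for 90.6% of tested genes and all 34 listed genes. Hspa5 spans 4460 bases, Xbp1 5085, Creld2 7477 and Hyou1 12117, and in their classes the medians of all genes were -0.12, -0.06, -0.06 and 0.06. Atf6, with 179648 bases, and Eif2ak3, with 61434, belong to the class whose median was 0.53, so that their log2 ratios of 0.86 and 0.99 lay less far above the median of genes of like length than the 1.60 of Hspa5. Atf4, Ddit3, Calr and Herpud1 span from 2059 to 19809 bases. The part of gene length in these ratios was not tested.

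**Figure D4:**
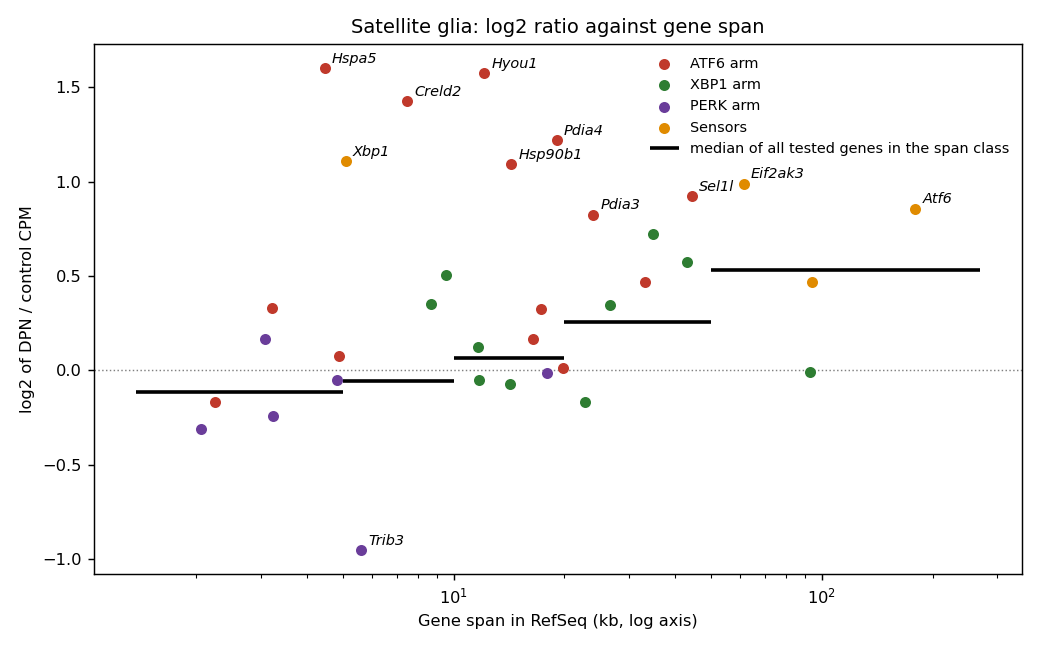
Log2 ratio of DPN to control in SGCs (y) against gene span (x, log axis) for the 34 genes, coloured by arm, with black bars for the median of all tested genes in each span class. Hspa5 at 1.60 lies above a class median of -0.12, and Atf6 at 0.86 above one of 0.53.

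Other genes of the secretory and stress pathways were followed as lists in SGCs. Of 28 measured genes for ER translocation and vesicle transport, 1 (Sec24d, 2.79) was higher, with a median log2 ratio of -0.15. Of 16 other folding enzymes, 5 were higher and 0 lower, namely Tmx1 at 2.51, Ero1b at 2.20, the glycoprotein folding sensor Uggt1 at 1.86, the BiP co-chaperone Dnajc10 at 1.85 and the oxidase Ero1a at 1.63. Among other degradation genes, Edem3 was higher at 2.58. Of 21 other genes of PERK signalling and the amino acid response, Ddit4 at 1.86 and Vldlr at 1.71 were higher and Shmt2 at 0.646 and Eif4ebp1 at 0.577 lower, with a median of -0.19. Over all genes in SGCs 26.9% were higher and 2.47% lower, with a median log2 ratio of 0.21.

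Heat shock genes answer to unfolded protein outside the ER, and those listed are cytosolic apart from the mitochondrial Hspe1 and Hspd1. In SGCs 0 of 12 were higher, against 26.9% of all genes, and 1, Hspa1b, was lower, against 2.47%, at 1763 and 1003 CPM, a ratio of 0.569 (0.562 to 0.576), though a near-identical copy can share its reads. The median log2 ratio of the heat shock list was -0.24, with 5 of the 12 above 1 in ratio. In fibroblasts 2 were higher and 1 lower, against 25.4% and 4.01% of all genes, with 8 of 12 above 1 and a median of 0.31 against 0.20 over all genes. Hspa1b was lower in all 6 gates. Macrophages had 5 of the 12 lower, Hspa1b, Hspa8, Hsph1, Dnaja1 and Hspe1, and 1 higher, Hspa4, against 3.44% and 19.2% of all genes there. Immediate early genes, which respond within minutes to stimuli that include tissue dissociation, were higher for 7 of 12 in SGCs, against 26.9% of all genes, with Fos at 2242 and 4536 CPM and a median log2 ratio of 0.67. In myelinating Schwann cells 0 of the 12 were higher, against 18.9% of all genes, but 8 had ratios above 1, among them Fosb at 1.43 and Fos at 1.41, and the median log2 ratio was 0.27. In fibroblasts 8 of 15 other PERK and amino acid response genes were higher, among them Atf3 at 2.38, Slc7a5 at 3.16, Tars at 2.25 and Sesn2 at 2.03, against the 25.4% of all genes there. The part of these genes in the ER results was not tested.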

How the data were processed

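The authors made the UMI counts per gene and cell barcode with Cell Ranger 3.1.0, with reads mapped by STAR, and deposited the counts without normalization. The version of STAR and the genome build are not given in the sources used here. The paper names a down-sampling step without saying whether it was applied. The members and lists were chosen with earlier results of these data known.

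Cells with at least 1000 UMIs, under 20% of UMIs from symbols beginning Mt- and exactly 1 gate reached were kept. Gates required per 10000 UMIs at least 12 (SGCs), 5 (myelinating), 10 (endothelium), 2 (smooth muscle), 5 (fibroblasts) and 10 (macrophages). No doublet caller was run, and the 76 control and 124 DPN cells that reached several gates were left out in its place. Median UMIs per cell were 13748.5 and 11125 in SGCs and 3657.5 to 10354 in the other gates. UMIs were summed per gate and library and divided by the total. Of the 147 symbols with several identifiers, only Hba-a2, a red blood cell marker, was used, by its first identifier.

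Levels carry exact Poisson and ratios exact conditional binomial 95% intervals, which cover counting error alone. With 1 library for each condition, the libraries were compared without a test. Genes named are members past the limit, a fixed set in SGCs, and called genes of the lists, with others named after their values were seen. Levels of Derl3 and protein sequences were not analysed here, and the count over the other degradation genes is not reported here. Motif positions, gene spans and names came from RefSeq tables. Intervals and calls were tested on simulated data. The alternatives were other cell filters, gates, totals, scalings, thinning, gene minimums and fold limits. Python 3.11.15, numpy 2.4.6, scipy 1.17.1, pandas 2.3.3 and matplotlib 3.10.9 were used.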

Additional observations from a re-analysis of the deposited data

Results flagged for a closer look

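Cells that reached no gate lie outside the 6 cell types compared and held neuron markers at 6716 CPM in the control and 7338 CPM in the DPN library. Of the 34 listed genes, 9 (26.5%) were higher in them, against 23.7% of all genes, and the median log2 ratio was 0.17 against 0.16. Among those higher, the ratio was 2.15 for Hspa5 (605.2 and 1300.4 CPM), 1.95 for Hsp90b1 and 1.70 for Pdia3. These cells are a mixture, and other markers were also present in the control and the DPN library. Sums were 1078 and 827.6 CPM for myelinating Schwann cells, 455.1 and 436.0 CPM for SGCs, and 160.6 and 178.6 CPM for neutrophils. Which of the cells carry the difference was not tested.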

How the results depend on the processing

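No paired analysis was possible because the control and the DPN rats were each pooled into 1 library. Over 15 alternatives, 152 of 180 recomputed counts of higher or lower genes stayed within 1.5 times the reported count, and the SGC ratio of Hspa5 ranged from 2.74 to 3.61 and that of Hsp90b1 from 1.92 to 2.35. With a lower fold limit, 19 genes were higher in SGCs and 13 in endothelium, and 1, 2, 4 and 1 were lower in myelinating cells, endothelium, fibroblasts and macrophages. With a mitochondrial limit of 10%, which keeps few SGCs, 0 were lower in SGCs, 0 higher in myelinating cells, 4 higher in smooth muscle and 1 lower in fibroblasts, and Trib3 in SGCs (1.16) and Syvn1 in myelinating cells (0.378) turned. Thinning to 1000 UMIs left 3, 4, 2 and 3 higher in myelinating cells, smooth muscle, fibroblasts and macrophages, 0 lower in endothelium and fibroblasts and 1 lower in macrophages, and turned Pdia4 in smooth muscle (0.784), Xbp1 in fibroblasts (0.390) and Edem1 in macrophages (0.840), each on few UMIs. With at least 200 UMIs per gene, 2, 3 and 4 were higher in myelinating cells, smooth muscle and fibroblasts, and 1 was lower in fibroblasts. That 1 also stood for fibroblasts with several-gate cells kept (and 1 lower in smooth muscle), with the AY172581 genes counted as mitochondrial, with the 4 MAD filter and with means over cells (and 0 lower in endothelium). With no gene minimum, 1 was lower in myelinating cells. The cause was not tested beyond the fewer UMIs or genes these settings leave.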
